A study of Mus musculus with 4 samples.

Results

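The HoxD interval is a run of 300 kb on mouse chromosome 2 that holds the HoxD gene cluster and its surroundings. Its members are the tiling-array probes placed within chr2:74400001-74700000 on the mm9 build, 2915 of the 48316 non-control probes of the array. The positions taken for the ends of the cluster are near 74506000 for Hoxd13 and near 74600000 for Hoxd1. The cluster itself was taken as chr2:74505001-74605000, 100 kb with 1193 probes, and the rest as a flank beyond Hoxd13 (896 probes) and a flank beyond Hoxd1 (826 probes). The cluster was further cut into 4 segments of 25 kb, numbered from the Hoxd13 end, with 286, 294, 316 and 297 probes.

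The samples are nuclear RNA of embryonic stem cells (ESC) of the mouse line 46c, grown undifferentiated in GMEM medium, and of neural progenitor cells (NPC) made from the same line with the N2B27 protocol. There were 2 arrays in each group. The line carries a fluorescent reporter of neural commitment, so both groups share 1 genetic background. RNA came from native chromatin of nuclei kept from RNase, was amplified over the whole transcriptome and was labelled by random priming, so the signal carries no strand and no DNase step is named. The stated aim of the series concerns the region of Shh on another chromosome; the HoxD interval is a further covered region. Nothing in the labels says that arrays of a group came from separate cultures, so the spread between them may be technical. The cell types were not checked against markers such as Pou5f1, Nanog, Sox1 or Pax6, because no gene other than Hoxd13 and Hoxd1 was given a place among the probes. The share of all probes well above background, a yes or no mark that the scanner software set for each spot, was 43.6% (SD 1.49, n = 2) for the ESC arrays and 54.2% (SD 0.0995, n = 2) for the NPC arrays, and 2.35% and 1.52% of negative control spots passed the same limit.

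Hox genes encode homeodomain transcription factors that give cells along the body axis their position. In the vertebrate HoxD cluster the genes stand on the chromosome in the order in which they are used along the body, with Hoxd1 and its neighbours used early and towards the head and Hoxd13 late and towards the tail, limbs and genitals. In embryonic stem cells such clusters are known as large domains of Polycomb-marked, mostly silent chromatin. Sorted by RefSeq gene start alone, the cluster runs Hoxd13, Hoxd12, Hoxd11, Hoxd10, Hoxd9, Hoxd8, Hoxd3, Hoxd4 and Hoxd1. The list of genes taken for the cluster sets Hoxd4 before Hoxd3, so the start of Hoxd3 need not give its place in the order of use. Hoxd13 acts in digit and genital development. Hoxd12 and Hoxd11 act in the limb, the latter in the forearm. Hoxd10 and Hoxd9 act in the lumbar spinal cord and hindlimb. Hoxd8 acts along the trunk, Hoxd3 in the vertebrae of the neck, Hoxd4 in the hindbrain and neck, and Hoxd1 in sensory neurons of the mouse. By gene start the table lists Mir10b, a microRNA gene, and Haglr, a long non-coding RNA, after Hoxd4 and before Hoxd1. Beyond Hoxd13 follow Evx2, another homeobox gene, and Lnpk, which encodes a protein that shapes the endoplasmic reticulum. Beyond Hoxd1 follows Mtx2, which encodes a protein of the mitochondrial outer membrane. That table is on another build, so it gave only this order. The genes between Hoxd13 and Hoxd1 were therefore not placed under the windows described here.

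The promoters of the outermost genes are shown because the positions of Hoxd13 and Hoxd1 are the only anchors of the profile. They are the RefSeq sequences of 250 bases before to 50 bases after the gene start, on the GRCm38.p6 build, whose coordinates cannot be set against the mm9 positions of the probes. Hoxd13 lies at chr2:74667975-74668274 and Hoxd1 at chr2:74762730-74763029 of that build, both on the plus strand. Capitals mark any match to the TATA motif TATAAA on either strand (TTTATA as read), where matches on both strands may overlap.
Hoxd13: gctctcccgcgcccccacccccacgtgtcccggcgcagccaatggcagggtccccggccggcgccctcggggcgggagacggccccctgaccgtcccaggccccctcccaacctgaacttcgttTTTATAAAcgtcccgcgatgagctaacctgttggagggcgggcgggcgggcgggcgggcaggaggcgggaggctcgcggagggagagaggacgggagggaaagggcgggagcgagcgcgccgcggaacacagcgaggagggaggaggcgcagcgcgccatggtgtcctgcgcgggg
Hoxd1: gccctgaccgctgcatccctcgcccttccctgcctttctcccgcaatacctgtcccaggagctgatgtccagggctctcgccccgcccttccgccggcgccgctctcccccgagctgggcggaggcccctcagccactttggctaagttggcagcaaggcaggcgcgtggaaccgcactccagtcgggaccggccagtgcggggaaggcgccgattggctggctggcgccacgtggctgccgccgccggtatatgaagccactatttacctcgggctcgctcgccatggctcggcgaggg
Both sequences are rich in G and C, at 74.3% for Hoxd13 and 69.7% for Hoxd1. They hold 37 and 29 CpG pairs, the first and second highest of the 10 promoters listed for the 9 genes, against a median of 7 over 32851 promoters of that length. The Hoxd13 promoter holds the motif as 2 overlapping matches and the Hoxd1 promoter holds none. Of the 10 promoters, 2 hold it (Hoxd13 and Hoxd4), against 13.6% of all promoters. A match is a description of these letters and not a binding site.

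Nuclear RNA along the cluster changed unevenly between ESC and NPC. Signal rose in 4 windows of the part nearer to Hoxd1, which stand within a run from 44 to 84 kb past the Hoxd13 position where every window read higher in both NPC arrays. No window at Hoxd1 itself passed the test. The part nearer to Hoxd13 and both flanks mostly read lower in NPC, by about as much as the floor of the arrays did. Levels are means over the probes of a window of 5 kb, on a log2 scale relative to the 75th percentile of the probes that were well above background on all 4 arrays; a level of 0 is therefore the level of a bright probe. A difference is NPC minus ESC on that log2 scale. Different windows hold different probes, so levels of different windows are set side by side only as a description.

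**Figure D1:**
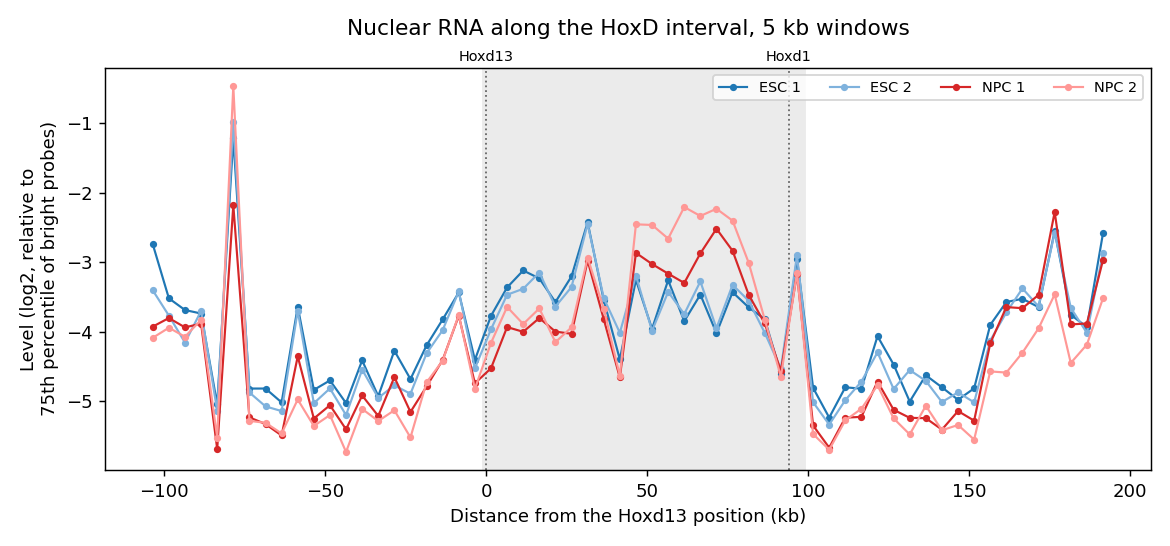
Level of each of the 4 arrays (y axis, log2 relative to the 75th percentile of bright probes) in the 60 windows of 5 kb, by distance from the Hoxd13 position (x axis, kb); grey marks the cluster. From 44 to 84 kb both NPC arrays lie above both ESC arrays, and over most other windows they lie below.

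The interval held 60 windows with 8 to 69 probes each. A window was called when the test across all 964 windows of the array (limma, Benjamini-Hochberg) gave an adjusted p under 0.05. In the interval 4 windows were called higher in NPC, 6.67% of 60, where 22% of all windows were. The windows called lower were 15, 25% of 60, where 29.3% of all windows were. The share called lower lies near the background and the share called higher well under it, so the counts do not set the interval apart from the array by themselves. The median difference was -0.39 over the 60 windows and -0.34 over all windows. All 4 higher windows lay in the cluster, 3 of them in segment 3 and 1 in segment 4. These 4 were 20% of the 20 windows of the cluster, near the 22% of all windows. The lower windows were 3 in segment 1, 2 in segment 2, 6 in the Hoxd13 flank and 4 in the Hoxd1 flank. With either ESC array left out, limma called 0 windows in the interval and 0 of the 964 on the whole array, where the smallest adjusted p was 0.111 and 0.113. Before adjustment 2 windows of the interval were higher and 1 lower at p under 0.05 without ESC 1, and 2 and 5 without ESC 2. With NPC 1 left out it called 9 higher and 30 lower in the interval, and 232 and 432 on the array. Scaling moved the split of calls both on the array and in the interval. A percentile taken over all probes gave 3 higher and 47 lower in the interval, and 195 and 622 on the array. Normexp background correction with quantile normalization gave 1 and 14, and 188 and 353 on the array. The authors' values gave 2 and 28, and 200 and 450 of the 960 windows they cover. Arrays scaled on the control spots named SRN gave 5 and 0, and 246 and 68 on the array. Each row of the slide held 1 array of each group, and the row equals the replicate number; with it as a block, 5 windows were higher and 4 of the 15 lower ones were still called, and 210 and 144 windows on the array.

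The window with the largest rise was chr2:74575001-74580000, which holds 66 probes and lies in segment 3. Its level was -4.02 and -3.95 in the ESC arrays and -2.52 and -2.23 in the NPC arrays. Both NPC arrays stood far above both ESC arrays, and the gap between the groups was wider than the gap within either. The difference was 1.61 (SE 0.16, adjusted p = 0.00692), or 1.95 above the median window of the array. The probes well above background in it went from 37.9% in ESC to 78.0% in NPC. This window was called higher under each of the 11 alternatives that kept all arrays.

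The window chr2:74555001-74560000, at the start of segment 3, had levels of -3.96 and -3.98 in ESC and of -3.02 and -2.46 in NPC. The ESC arrays lay nearly on each other and the NPC arrays apart, both above ESC. The difference was 1.23 (SE 0.23, adjusted p = 0.0168), and of its 57 probes 35.1% were well above background in ESC and 71.1% in NPC.

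The window chr2:74570001-74575000 had levels of -3.46 and -3.27 in ESC and of -2.87 and -2.33 in NPC. The groups did not overlap, though NPC 1 lay closer to ESC 2 than to NPC 2. Its difference was 0.77 (SE 0.23, adjusted p = 0.0467), close to the threshold. The last called window, chr2:74580001-74585000 in segment 4, had levels of -3.43 and -3.32 in ESC and of -2.83 and -2.40 in NPC. The groups were again apart, with a difference of 0.76 (SE 0.19, adjusted p = 0.0352). These last windows fell short of the threshold under 3 of the 11 alternatives each, with the difference above 0 under every one.

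The 4 called windows belong to a run of 8 adjacent windows, chr2:74550001-74590000, in which both NPC arrays lay above both ESC arrays. Over the array 27.7% of windows had that order and 58.2% had the opposite one. The other 4 windows of the run were not called. The window chr2:74565001-74570000 had levels of -3.84 and -3.74 in ESC and of -3.30 and -2.20 in NPC. Its difference of 1.04 was the third in size in the interval, but the NPC arrays lay further apart than NPC 1 lay from ESC (SE 0.39, adjusted p = 0.0762). The remaining uncalled windows of the run had differences of 0.56, 0.43 and 0.36 with adjusted p of 0.0587, 0.145 and 0.172. Outside the run no window of the interval had both NPC arrays above ESC. In the cluster 10 windows had both NPC arrays below and 2 overlapped, and in the flanks 33 lay below and 7 overlapped.

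**Figure D2:**
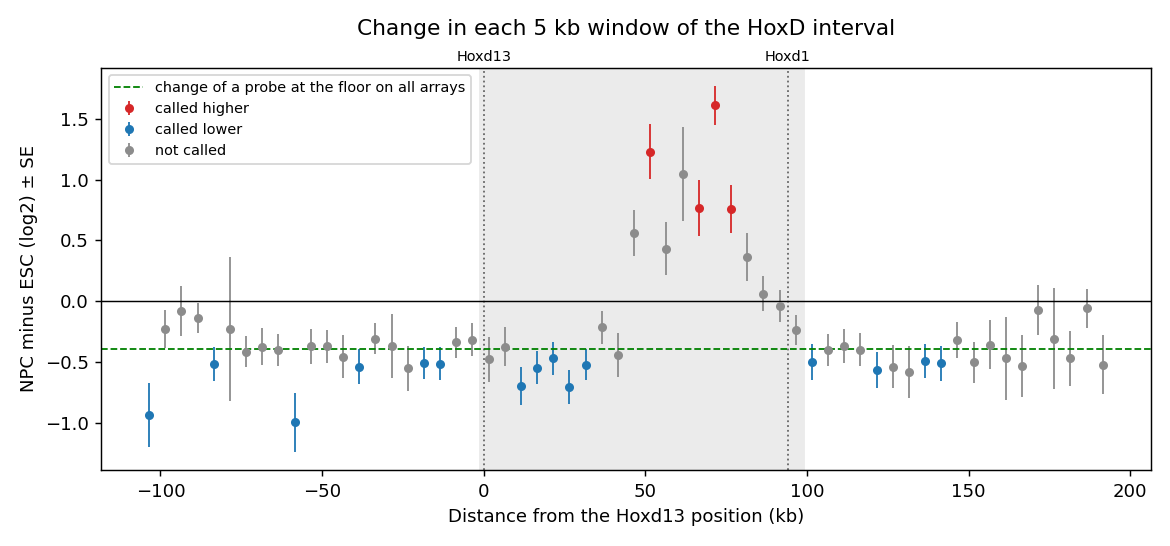
Difference of NPC minus ESC (y axis, log2, with its SE from the fit) in each window of 5 kb, by distance from the Hoxd13 position (x axis, kb). Red windows were called higher, blue windows lower and grey windows neither; the dashed line at -0.39 is the difference of a probe at the floor on all arrays. The windows that rose stand together in the cluster, and most others lie near the dashed line.

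Bins of 1 kb gave the edges of the run more closely. In the 45 kb of the cluster before it, 0 of 45 bins had both NPC arrays above both ESC arrays, and 2 had a difference above 0. Within the run this order held in 29 of 40 bins, and 37 had a difference above 0. In the 15 kb after it, up to the end of the cluster past Hoxd1, the order held in 3 of 15. The run was picked by this same order in its 5 kb windows, so these counts describe it and add no support. The share of such bins over the whole array is not given here. The bin chr2:74549001-74550000 had a difference of -0.23, the next 2 bins had 0.12 and 0.77. At the other edge the bin chr2:74588001-74589000 had 0.50 and the next had -0.17.

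The bins with the largest rises, named here, lay in the window with the largest rise or at the start of segment 3. The bin chr2:74575001-74576000 had levels of -4.58 and -4.21 in ESC and of -2.38 and -1.30 in NPC, a difference of 2.55. The bin chr2:74555001-74556000 went from -5.11 and -4.44 to -2.78 and -2.33, a difference of 2.22. The bin chr2:74577001-74578000 went from -3.34 and -3.59 to -1.46 and -1.34, a difference of 2.07. In each of these bins the groups were far apart. Other bins of the run had small differences, such as the bin at its start, chr2:74550001-74551000, at -1.95 and -1.93 in ESC and -1.90 and -1.72 in NPC. These 4 bins hold 11 to 14 probes each and were not tested.

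**Figure D3:**
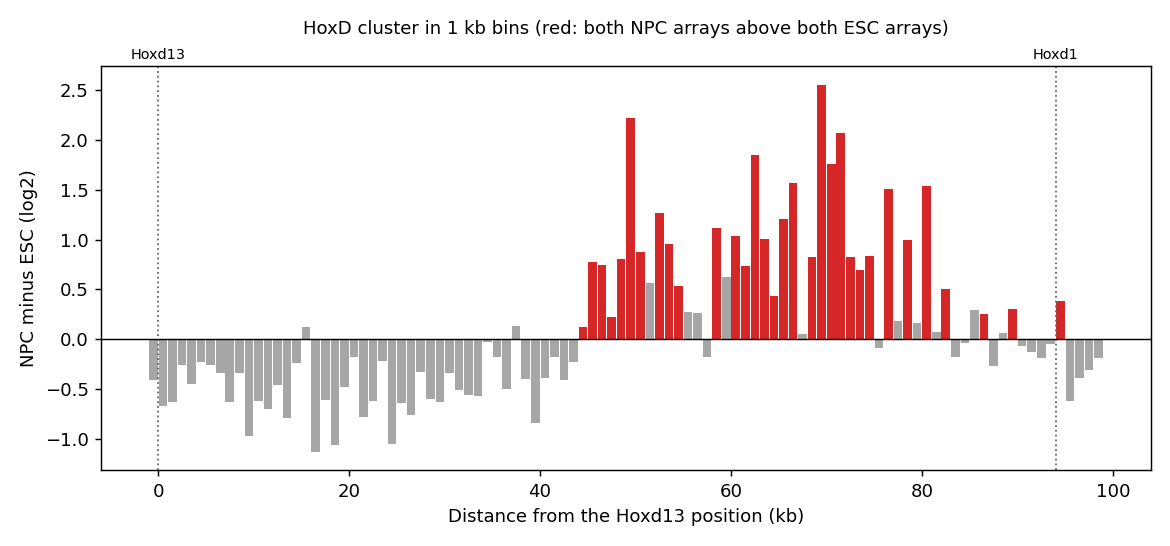
Difference of NPC minus ESC (y axis, log2) in each 1 kb bin of the cluster, by distance from the Hoxd13 position (x axis, kb); red bars are bins in which both NPC arrays lie above both ESC arrays. Of the 45 bins before 44 kb none is red, and 29 of the 40 bins from 44 to 84 kb are. That stretch was picked by the same order in 5 kb windows.

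Averaged over whole segments, the 4 arrays read -3.42, -3.53, -4.04 and -3.91 in segment 1, in the order ESC 1, ESC 2, NPC 1 and NPC 2, and -3.34, -3.28, -3.64 and -3.49 in segment 2. Both NPC arrays were below both ESC arrays in both segments, with differences of -0.50 (SE 0.088) and -0.26 (SE 0.079); the latter turned to 0.033 when arrays were scaled on the SRN spots. Segment 3 read -3.69, -3.66, -2.97 and -2.38. Both NPC arrays were above ESC, by 1.0 on average (SE 0.29), with a wide gap between NPC 1 and NPC 2. The difference stayed above 0 under every alternative, but was 0.19 after normexp, 0.62 where all probes gave the percentile, 0.52 in the authors' values and 1.60 with medians over probes. Segment 4 read -3.63, -3.60, -3.51 and -3.31, a difference of 0.21 (SE 0.10) that turned to -0.18 with that percentile and to -0.018 after normexp. With 2 against 2 arrays an exact two-sided permutation test cannot go below p = 0.333, the value it gave for each of the 4 segments.

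A contrast between segments within each array is free of any constant added to an array. Segment 3 minus segment 1 was -0.27 and -0.14 in the ESC arrays and 1.08 and 1.52 in the NPC arrays. So segment 3 read below segment 1 in both ESC arrays and above it in both NPC arrays, a turn of 1.51 (SE 0.23, exact permutation p = 0.333). It was 0.39 after normexp and quantile normalization, which change the spread of values within an array, and 1.12 in the authors' values and 2.43 with medians over probes. Segment 4 minus segment 1 changed by 0.71 (SE 0.074) and segment 2 minus segment 1 by 0.24 (SE 0.081).

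**Figure D4:**
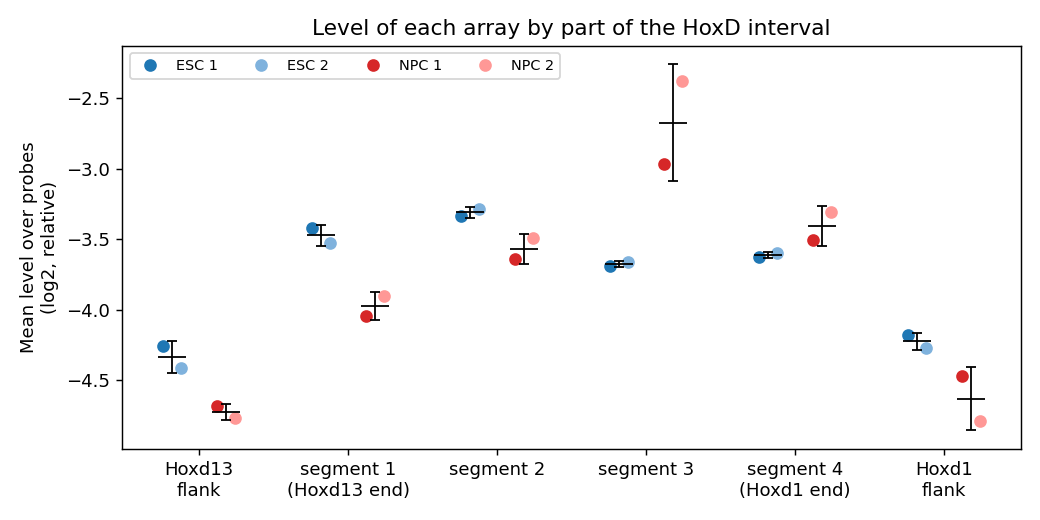
Mean level over the probes of each flank and each 25 kb segment (y axis, log2, relative to the 75th percentile of bright probes) in each array (points); black bars are the group means with their SD (n = 2). Segment 3 is the part where the NPC arrays lie highest above the ESC arrays, at -2.97 and -2.38 against -3.69 and -3.66.

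Over the whole cluster the difference was small. The cluster read -3.52 and -3.52 in ESC and -3.53 and -3.25 in NPC, so that NPC 1 lay at the level of the ESC arrays. The difference was 0.13 (SE 0.14, exact permutation p = 1), and it turned below 0 without NPC 2 and under 3 scalings, as far as -0.25 where all probes gave the percentile. Against its own flanks the cluster stood 0.70 and 0.82 higher in ESC and 1.06 and 1.52 higher in NPC. The contrast was larger in both NPC arrays, by 0.53 (SE 0.24, exact permutation p = 0.333), but by 0.091 after normexp, by 0.30 without NPC 2 and by 1.16 with medians over probes.

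Over the whole array the share of probes well above background differed by 10.7 percentage points between the groups, at 43.6% and 54.2%. In segment 3 the scanner software marked 42.1% and 43.0% of the probes as well above background in the ESC arrays, and 64.2% and 78.5% in the NPC arrays. The exact binomial 95% intervals ran up to 48.7% in ESC and from 58.7% in NPC. They cover counting error only, with the probes of an array taken as independent, and not the spread between arrays. With 2 against 2 arrays the exact permutation p of this share was 0.333, the lowest it can reach. The mean share thus went from 42.6% ± 0.671 to 71.4% ± 10.1 (SD, n = 2 each). In segment 4 it went from 41.8% to 54.0%, about as much as on the whole array, in segment 2 from 50.2% to 50.7%, and in segment 1 from 48.8% to 44.2%. The flanks stayed low in both groups, at 29.5% and 29.2% beyond Hoxd13 and at 31.4% and 32.4% beyond Hoxd1. Over the interval the ESC arrays had a share of 36.7% ± 0.703 and the NPC arrays of 40.9% ± 3.35, a smaller difference than on the whole array.

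**Figure D5:**
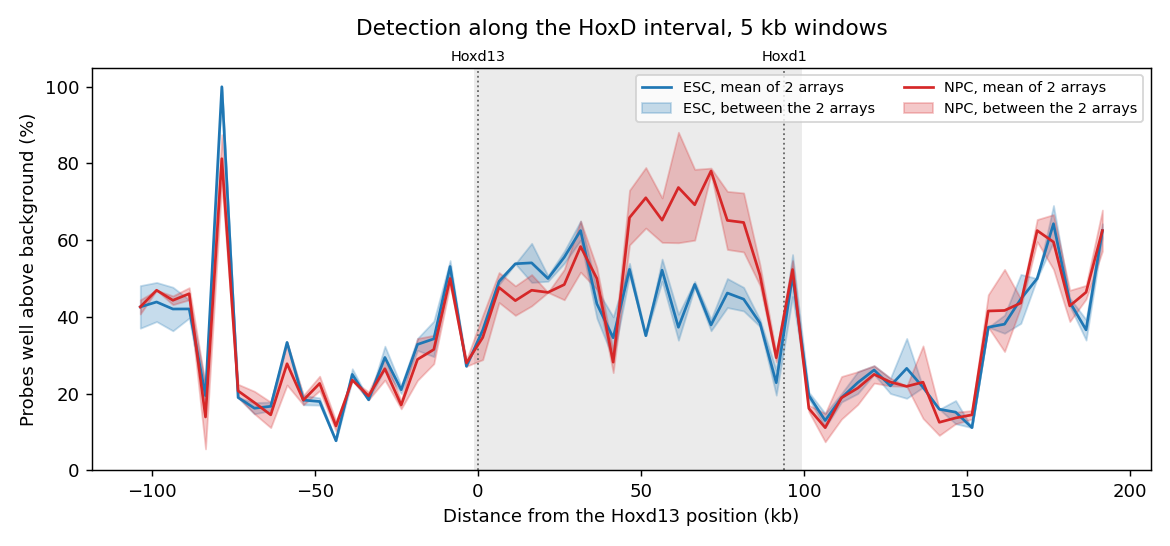
Share of probes well above background (y axis, percent) in each 5 kb window, by distance from the Hoxd13 position (x axis, kb); lines are means of the 2 arrays of a group and bands run between those arrays. The NPC line leaves the ESC line from 44 to 84 kb, reaching 78.0% against 37.9% in the window with the largest rise.

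Probes above background on both NPC arrays and on neither ESC array were 114 in the interval, or 3.91%, where 10.8% of all probes were. Of these 114, 58 lay in segment 3 (18.4% of its probes), 20 in segment 4, 5 in segment 2 and 2 in segment 1, and 29 in both flanks together (1.68%). The reverse, above background on both ESC arrays and on neither NPC array, held for 30 probes or 1.03%, where 1.48% of all probes were. Segment 3 also had 107 probes above background on all 4 arrays, whose mean level in the ESC arrays was -1.34 and -1.29, and in the NPC arrays -1.28 and -0.86. NPC 2 was above both ESC arrays there, and NPC 1 stood barely above them. These probes, chosen by detection in both groups, differed by 0.25 (SE 0.21), against 1.0 over all probes of the segment.

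Tested one by one with limma, 65 of 2899 probes of the interval were called higher in NPC, or 2.24%, where 10.7% of all probes were. The probes called lower were 23, or 0.793%, where 1.58% of all were. Both shares lie under the background. Segment 3 held 41 of the 65 higher probes (13.1% of its 314 tested), segment 4 held 11, segment 2 held 4 and segment 1 held 0, with 1 at p under 0.05 before adjustment in the last. The share in segment 3 lies near the 10.7% of all probes, so by this count segment 3 stands out from the interval and not from the array. Leaving out an array moved the counts of called probes, with 1 array then left in its group. Matching counts over all probes are not given here, so the move cannot be set against that of the array.

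The named probes are those with the largest called differences. For each of them one group was not well above background on either array, so the fold is a lower bound: the dim group enters, per array, at the lowest signal that passed as well above background there, or at the probe's own signal if that is higher. The probe at chr2:74577204-74577263 had levels of -3.87 and -4.35 in ESC and of 0.74 and 1.1 in NPC, which is brighter than the scaling level of bright probes. It was at least 21.4-fold higher in NPC (adjusted p = 0.0104). The probe at chr2:74575585-74575644 went from -5.77 and -5.88, the floor of the ESC arrays, to -1.16 and -0.09. It was at least 7.28-fold higher (adjusted p = 0.0111). The probe at chr2:74572312-74572371 had levels of -5.77 and -5.23 in ESC and of -0.86 and -0.51 in NPC, at least 6.99-fold higher (adjusted p = 0.0104). All 3 lie within 5 kb of each other in segment 3, next to or inside the window with the largest rise.

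The 3 probes with the largest falls all lay in the Hoxd1 flank, well away from the cluster. The probe at chr2:74695696-74695755 had levels of -0.60 and -0.66 in ESC and sat at the floor in NPC, at -6.07 and -6.36, at least 9.54-fold lower (adjusted p = 0.0104). The probe at chr2:74693892-74693951 had -1.33 and -0.17 in ESC and the same floor in NPC, at least 8.78-fold lower (adjusted p = 0.0113). The probe at chr2:74646321-74646380 had -2.42 and -1.61 in ESC, at least 3.65-fold lower (adjusted p = 0.0120). Each was well above background in both ESC arrays and at the floor in both NPC arrays. The window that holds the first of them was not called, and that of the third, chr2:74645001-74650000, was called lower (difference -0.51, adjusted p = 0.0425).

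The floor of the arrays also read lower in NPC. The scanner software replaces low intensities by a floor for each array, which lay at -5.77 and -5.88 in the ESC arrays and at -6.07 and -6.36 in the NPC arrays on the relative scale. A probe at the floor on all arrays therefore differs by -0.39 without any measured signal. In the interval 37.0% to 41.2% of the probes of an array were at the floor, and 649 probes, or 22.3%, were there on all 4. With 1 common floor for all arrays, 3 of the 15 lower windows were called and the 4 higher windows all were. Over all 964 windows 128 were then called lower and 218 higher, against 282 and 212 in the main fit. With dim probes left out, 15 of 55 windows were called lower, 10 of the main 15 among them. On the array 253 of 917 were. In segments 1, 2, 3 and 4, probes well above background on all 4 arrays differed by -0.37, -0.25, 0.25 and -0.07. Their SE were 0.19, 0.12, 0.21 and 0.06. Such probes differed by -0.28 in both flanks together and by -0.06 on the whole array. The cause was not tested. With arrays scaled on the SRN control spots, limma called 0 lower windows, with 3 lower at p under 0.05 before adjustment. The median difference of all windows also depended on the scaling, from -0.72 where all probes gave the percentile to -0.05 for the SRN spots.

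Of the windows called lower, 11 lost the call with the replicate number (slide row) as a block. The windows with the largest called falls were chr2:74445001-74450000, at -3.64 and -3.70 in ESC and -4.35 and -4.97 in NPC, and chr2:74400001-74405000, at -2.74, -3.40, -3.92 and -4.08 in the same order of arrays. Their differences were -0.99 (SE 0.24, adjusted p = 0.0320) over 9 probes and -0.93 (SE 0.26, adjusted p = 0.0410) over 27 probes. Both lie in the Hoxd13 flank, and in the latter the ESC arrays lay further apart than ESC 2 lay from NPC 1. In the cluster, chr2:74530001-74535000 read -3.20, -3.35, -4.03 and -3.93 and chr2:74515001-74520000 read -3.12, -3.38, -4.0 and -3.89. Their groups did not overlap, with differences of -0.70 (SE 0.14, adjusted p = 0.0197) and -0.69 (SE 0.16, adjusted p = 0.0266). In the Hoxd1 flank, chr2:74625001-74630000 read -4.06, -4.29, -4.71 and -4.77, a difference of -0.56 (SE 0.15, adjusted p = 0.0366).

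At the ends of the cluster no difference was called. The window of the Hoxd13 position, chr2:74505001-74510000, read -3.77 and -3.96 in ESC and -4.52 and -4.16 in NPC. Both NPC arrays were below both ESC arrays, with a difference of -0.48 (SE 0.19, adjusted p = 0.0861). The window up to the Hoxd1 position, chr2:74595001-74600000, read -4.60 and -4.53 in ESC and -4.56 and -4.64 in NPC. The groups overlapped and the difference was -0.04 (SE 0.13, adjusted p = 0.819). The next window, chr2:74600001-74605000, past the Hoxd1 position, read -2.95 and -2.90 in ESC and -3.16 and -3.15 in NPC. There both NPC arrays lay below both ESC arrays, with a difference of -0.23 (SE 0.13, adjusted p = 0.166). Just past that position stood the bin with the highest mean level of the interval in both groups, chr2:74601001-74602000, with 16 probes. It read -0.10 and -0.09 in ESC and -0.54 and -0.89 in NPC, so it was lower in both NPC arrays.

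The highest window of the cluster differed between the groups. In ESC it was chr2:74535001-74540000, at -2.42 and -2.45, where the NPC arrays read -2.97 and -2.93 (difference -0.52, SE 0.13, adjusted p = 0.0318). In NPC it was the window with the largest rise, chr2:74575001-74580000. In the Hoxd13 flank 1 window was highest in both groups, chr2:74425001-74430000, at -1.21, -0.98, -2.17 and -0.46. Its 8 probes were all well above background in both ESC arrays, and 87.5% and 75% of them in NPC 1 and NPC 2. Its groups overlapped (adjusted p = 0.755). In the Hoxd1 flank the highest window in both groups was chr2:74680001-74685000, at -2.55, -2.57, -2.27 and -3.46. There NPC 1 was the highest array and NPC 2 the lowest (adjusted p = 0.542).

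The NPC arrays did not differ by a constant. NPC 2 read above NPC 1 in segment 3, at -2.38 against -2.97, and below it in the Hoxd1 flank, at -4.79 against -4.47. Over the 60 windows Pearson's r was 0.974 between the ESC arrays, 0.928 between the NPC arrays and 0.812 to 0.895 between arrays of different groups. These windows share their arrays and their probes, so r is a description. The 4 arrays lay on 1 slide with 1 scan, both ESC arrays in column 4 and the NPC arrays in columns 2 and 3, so slide column and group cannot be told apart. Rows 1 and 2 of the slide each held 1 array of each group.

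The interval belongs to a tile, here a stretch whose neighbouring probes lie at most 50 kb apart, at chr2:74349931-74723455 with 3546 probes. The tile read -3.85 and -3.92 in ESC and -4.07 and -4.10 in NPC, both NPC arrays below ESC. Its difference was -0.20 (SE 0.068, adjusted p = 0.0633 over 39 tiles), not called; 10.3% of tiles were called higher and 51.3% lower. Where all probes gave the percentile, and without NPC 1, it was called lower. The tiles most like it in both group means were chr5:102064277-102100554, at -3.83 and -3.90, and chr2:105321083-105554931, at -3.87 and -3.88, against -3.88 and -4.08 for the HoxD tile. Those tiles were not called either, with differences of -0.07 and -0.01.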

How the data were processed

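Nuclear RNA was read on 4 one-colour Agilent tiling arrays with probes of 60 bases on mm9, per the file headers, 2 for ESC and 2 for NPC by the sample titles. The deposited files hold each spot's intensity from Agilent Feature Extraction (version 11.5.1.1), which removed the background, raised low values to a floor and did not normalize between arrays, per the file headers. Its marks (unit other) say which spots were well above background or outliers, in the same deposited files. The authors' deposited log2 values, with limma named in the submitters' processing notes and scale and centring not given in the sources used here, served only as an alternative; over the HoxD probes, ranks matched the own scanner file in ESC 2 and both NPC columns (Spearman 1), but not in that of ESC 1 (0.836, against 0.873 with the file of ESC 2).

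The log2 of each intensity was centred on its array's 75th percentile, taken over the 15356 probes that passed the background mark on all arrays. Control and outlier spots were left out (16 HoxD probes from the probe test). Windows of 5 kb with at least 5 probes, single probes and tiles were fitted over the whole array with limma 3.58.1 in R 4.3.3 (lmFit, eBayes, group as the single term) and adjusted by Benjamini-Hochberg. The fit was tested on simulated data. Bins of 1 kb needed at least 3 probes. Mean levels of segments were compared by exact permutation. The number of arrays limits the precision. Figures were drawn with matplotlib 3.10.9.

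The members, segments and lists were chosen with earlier results of these data known. Named windows are those at the Hoxd13 and Hoxd1 positions, the highest of the cluster and of each flank in each group, and the 5 largest called rises and falls; named probes are the 3 largest called rises and falls; the 2 nearest tiles have at least 50 probes and the smallest distance in group means. The run of 8 windows and the single bins were picked after their values were seen. Alternatives were other scalings, normexp (offset 50) on median signals with quantile normalization, other windows, filters and summaries, a replicate block, each array left out, and, chosen after seeing the data, a common floor and a shifted grid. No annotation of mm9 was used, so genes, fixed marker lists and probe sequences were not analysed.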

Additional observations from a re-analysis of the deposited data

How the results depend on the processing

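For all changes given here the cause was not tested. With the percentile over all probes, 47 windows of the interval were called lower, 26 probes higher and 44 lower; the cluster differed by -0.25, segments 1 to 4 by -0.88, -0.64, 0.62 and -0.18, and the tile by -0.58 (adjusted p = 0.00728). With arrays scaled on SRN spots, 0 windows and 15 probes were lower, the cluster differed by 0.42, segments 1, 2 and 4 by -0.21, 0.033 and 0.50, and the tile turned to 0.090 (adjusted p = 0.372). After normexp and quantile normalization, 1 window and 5 probes were higher; the cluster differed by -0.035, cluster minus flanks by 0.091 and segments 1 to 4 by -0.19, -0.14, 0.19 and -0.018. With the authors' values, 2 windows were higher and 28 lower, 24 probes were higher, the cluster differed by -0.073 and segments 1 to 4 by -0.59, -0.37, 0.52 and 0.014. With dim probes left out the cluster differed by 0.27. With medians over probes, 4 windows were lower, the cluster differed by 0.46, cluster minus flanks by 1.16 and segments 1, 3 and 4 by -0.82, 1.60 and 0.75. With a common floor, 3 windows were lower, 23 probes were higher and segments 1 and 2 differed by -0.36 and -0.15. A variance trend gave 25 windows and 15 probes lower. Over all 964 windows, 336 were lower with that trend, 148 with medians and 128 with the common floor, against 282 in the main fit. Windows of 10 kb gave 2 higher, and a cluster wider by 1 window at each end gave 0.034 for segment 4. Counts over the whole array are not given for single probes or 10 kb windows under any alternative, so those of the interval stand alone. By the milder detection mark the share was 60.1% in ESC and 60.9% in NPC. With an array left out, windows higher ran from 0 to 9 and lower from 0 to 30, probes higher from 38 to 200 and lower from 38 to 155, the cluster from -0.0034 to 0.27, cluster minus flanks from 0.30 to 0.76, segment 1 from -0.57 to -0.43, segment 2 from -0.33 to -0.18, segment 3 from 0.71 to 1.30, segment 4 from 0.11 to 0.31 and the tile from -0.23 to -0.17 (adjusted p = 0.0375 without NPC 1, difference -0.22); a group then has 1 array, assumed to vary like the other group. The 4 higher windows kept their sign in the 11 alternatives on the same 5 kb windows that kept all arrays and in the 4 that left one out; other fits do not hold these windows.

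Replicate numbers shared by the groups equal the slide row and are not otherwise known to pair the arrays: the deviations of ESC 1 and NPC 1 from their group means correlated at 0.047 over 964 windows and at 0.284 over the 60 of the interval. With the replicate block 5 windows of the interval were called higher and 4 lower, 47 probes higher and 12 lower, and the tile difference had an adjusted p of 0.296. Only 2 arrays a group, the floor, and the share of probes not above background limit what small differences can show.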
